A study of Bos taurus with 29 samples.

Results

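The messenger RNA of 5 tubulin genes was followed through meiotic maturation of single cattle oocytes. The genes were taken by name from the expression table as TUBA1B and TUBA1C (alpha-tubulin), TUBB and TUBB4B (beta-tubulin) and TUBG1 (gamma-tubulin), and they are 5 of the 13502 genes it lists. A further 11 tubulin genes had a row. All 5 genes passed the filter on low values used throughout, at least 1 CPM in at least 6 libraries (CPM is reads scaled to the library total), which kept 11852 genes.

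Oocytes were compared in 3 groups, all labelled wild type. The CNP_IVM group (7 oocytes) consisted of metaphase II oocytes from complexes first held for 6 h in 200 nM CNP (C-type natriuretic peptide), in medium with FSH and without EGF, and then matured for 22 h. CNP is a follicular peptide that keeps oocytes in meiotic arrest. The IVM group (8 oocytes, Ctrl_IVM in the titles) consisted of metaphase II oocytes matured for 22 h with no such culture before. The maturation medium held 50 ng/mL EGF and 5 µg/mL FSH. The GV group (7 oocytes) was denuded at collection, at the germinal vesicle stage, before meiosis resumes. All complexes came from FSH-treated donors. CNP_IVM oocytes therefore spent 28 h in culture and IVM oocytes 22 h, so CNP and time in culture cannot be told apart. A further 7 labelled samples were not analysed here.

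Alpha- and beta-tubulin pair into the heterodimers that polymerise into microtubules, and each exists as several near-identical proteins encoded by separate genes. Gamma-tubulin is not part of the microtubule wall; it sits in a ring complex that starts new microtubules. A mammalian oocyte has no centrioles when it divides. Its spindle is built without them, after the nuclear envelope of the germinal vesicle has broken down. Fully grown oocytes transcribe little, so their messenger RNA is largely a store that is translated, kept or degraded during maturation.

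Library totals were between 20159662 and 39340040 reads, and all 20 oocyte markers on a list averaged 1 CPM or more in each group. Summed cumulus and granulosa markers (18 of 25 had a row) were 256 to 346 CPM in CNP_IVM, 381 to 656 CPM in IVM and 638 to 1110 CPM in GV oocytes. The largest part was HAS2 in CNP_IVM (mean 118 CPM) and STAR in IVM and GV oocytes (316 and 657 CPM), while INHA, VIM and FST averaged 0.358, 0.972 and 1.30 CPM in CNP_IVM, 0.723, 1.22 and 0.432 CPM in IVM, and 15.7, 16.1 and 10.4 CPM in GV oocytes (11.2, 5.79 and 7.71 CPM without GV replicate 9). FSHR, INHBB and CYP11A1 averaged under 1 CPM in every group. Not every cumulus and granulosa marker was highest in GV oocytes. HAS2 averaged 77.1 CPM in IVM and 16.3 CPM in GV oocytes (14.7 CPM without GV replicate 9), both below its CNP_IVM mean. PTGS2 averaged 37.6 CPM in CNP_IVM and 13.4 CPM in GV oocytes (8.28 CPM without GV replicate 9), and its mean was lowest in GV oocytes. Summed blood and immune markers (8 of 16 had a row) were 5.47 to 27.6 CPM, 13.7 to 85.3 CPM and 209 to 381 CPM in the same order of groups, most of it VWF in GV oocytes (mean 225 CPM), where CD3E averaged 29.4 CPM (1.27 in CNP_IVM and 3.55 in IVM) and CSF1R 25.4 CPM (2.88 in CNP_IVM and 11.4 in IVM), while CD68 averaged under 1 CPM in every group. Both sums had their highest mean in GV oocytes, as did TUBA1B, TUBA1C, TUBB and TUBB4B, and the part of these sums in the tubulin results was not tested. Transcripts of the mitochondrial genome took 7908 to 30207 CPM in CNP_IVM, 2205 to 9414 CPM in IVM and 2277 to 4834 CPM in GV oocytes, and leaving them out of the library totals moved no difference of the 5 genes past or back over 2-fold. GV replicate 9, titled GV but labelled under treatment as matured in vitro, stood apart with 9381 genes at 1 CPM or more, against 11311 to 11798 in the other GV oocytes. Results of the 5 genes and of tubulin classes that use GV oocytes, and list medians, are given with and without it, and of the other genes whose GV level is described, TUBA1A and MZT1 crossed 2-fold in a comparison with GV when it was left out. No donor or culture is named for any oocyte, so each group counts as 1 sample and no test was made. The SDs and ranges show the spread between oocytes, which is not the spread between animals. A CPM value is a share of the library and is not divided by gene length, so levels are compared between groups and not between genes.

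TUBA1B, a ubiquitous alpha-tubulin of dividing cells, was much lower after maturation. Its level was 30.2 CPM in the lowest, 38.7 in the median and 55.8 in the highest CNP_IVM oocyte. IVM oocytes had 93.9, 118 and 151 CPM, and GV oocytes 900, 1272 and 1492 CPM. The 3 groups did not overlap, and their order was CNP_IVM, IVM and GV from low to high. Group means were 40.7 ± 9.24 CPM in CNP_IVM (SD, n = 7), 118 ± 17.5 CPM in IVM (n = 8) and 1272 ± 192 CPM in GV (n = 7). On the log2(CPM + 1) scale, on which all differences are given, IVM versus GV was -3.42 (10.7-fold lower in IVM). CNP_IVM versus GV was -4.93 (30.5-fold lower in CNP_IVM), and CNP_IVM versus IVM was -1.51 (2.86-fold lower in CNP_IVM). Each difference was larger than the spread between oocytes, an SD of 0.22 to 0.28 on this scale. GV replicate 9 held the lowest GV value, and without it the GV oocytes had 1222 to 1492 CPM (mean 1334 ± 110.2, n = 6), with log2 differences of -3.49 for IVM and -5.00 for CNP_IVM versus GV.

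TUBA1C, the neighbour of TUBA1A in the RefSeq gene order and a close relative of TUBA1B, differed far less between groups and varied far more between oocytes of IVM and of GV. CNP_IVM oocytes had 181, 289 and 444 CPM (lowest, median and highest). IVM oocytes had 197, 431 and 974 CPM, and GV oocytes 330, 644 and 1344 CPM. All 3 groups overlapped, and the order of their means was the same as for TUBA1B. The means were 311 ± 84.1 CPM in CNP_IVM, 536 ± 261 CPM in IVM and 710 ± 354 CPM in GV oocytes (604 ± 237 CPM without GV replicate 9). The log2 difference of IVM versus GV was -0.41 (-0.17 without GV replicate 9), which is within the SD of 0.73 between oocytes. CNP_IVM versus GV was -1.19, but -0.96 without GV replicate 9 and -0.64 with TMM scaling (which sets each library's bulk of genes level), both under 2-fold. CNP_IVM versus IVM was -0.78, with an SD of 0.60 between oocytes.

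TUBB4B, a beta-tubulin found in most tissues, had the largest difference of the 5 genes. Its level was 3.65, 4.99 and 6.30 CPM in CNP_IVM oocytes (lowest, median and highest). IVM oocytes had 4.70, 15.01 and 35.5 CPM, and GV oocytes 237, 310 and 707 CPM. Every matured oocyte of both groups was below every GV oocyte, while the CNP_IVM and IVM groups overlapped. The means were 4.93 ± 1.15 CPM in CNP_IVM, 17.6 ± 12.6 CPM in IVM and 375 ± 160 CPM in GV oocytes (320 ± 69.9 CPM without GV replicate 9). The log2 difference of IVM versus GV was -4.34 (20.3-fold lower in IVM), or -4.11 without GV replicate 9. CNP_IVM versus GV was -5.99 (63.4-fold lower in CNP_IVM), or -5.76 without that oocyte. Of the 11852 kept genes, 0.0675% lay as low as TUBB4B or lower in this second comparison, and 0.202% without GV replicate 9. CNP_IVM versus IVM was -1.65 (3.13-fold lower in CNP_IVM), with 3 of 7 CNP_IVM oocytes below every IVM oocyte. Summed over its oocytes, CNP_IVM held 1297 TUBB4B reads, or 4.94 CPM with an exact 95% Poisson interval of 4.67 to 5.21 CPM that covers counting error only.

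**Figure D1:**
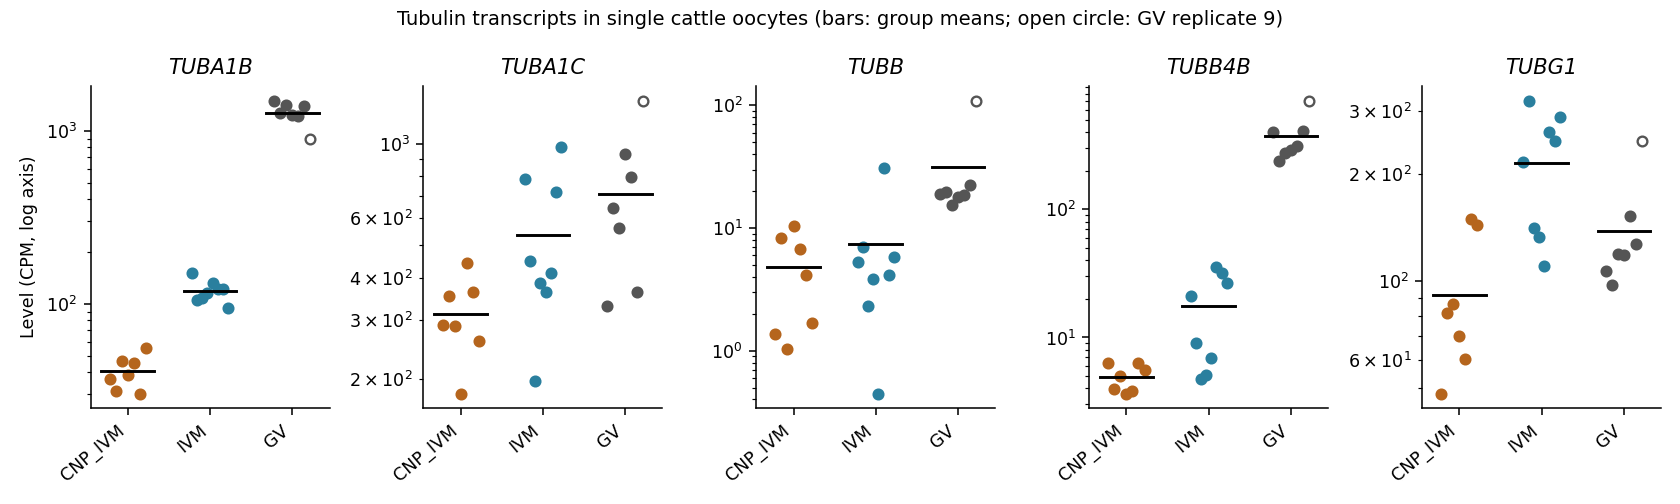
Level of each tubulin gene in every oocyte (CPM, log axis with its own range per gene), with CNP_IVM on the left, IVM in the middle and GV on the right; bars are group means and the open circle is GV replicate 9. TUBA1B separates into 3 levels (means 40.7, 118 and 1272 CPM), TUBB4B is at most 35.5 CPM in every matured oocyte, and TUBA1C and TUBG1 overlap between groups.

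TUBB, a beta-tubulin found widely in dividing cells, had few reads at every stage. CNP_IVM oocytes had 1.02, 4.12 and 10.4 CPM (lowest, median and highest). IVM oocytes had 0.446, 4.70 and 30.7 CPM, and GV oocytes 15.3, 18.9 and 110 CPM. A single oocyte set the highest value of each of these last 2 groups, IVM replicate 8 and GV replicate 9. The other IVM oocytes reached 7.05 CPM and the other GV oocytes 22.3 CPM. All CNP_IVM oocytes and 7 of 8 IVM oocytes were below every GV oocyte, and the matured groups overlapped. The means were 4.81 ± 3.73 CPM in CNP_IVM, 7.44 ± 9.62 CPM in IVM and 31.7 ± 34.4 CPM in GV oocytes, the last being 18.8 ± 2.29 CPM without replicate 9 (n = 6). The log2 difference of IVM versus GV was -1.96, or -1.23 without GV replicate 9 and -2.68 without IVM replicate 8. CNP_IVM versus GV was -2.50, or -1.77 without GV replicate 9. CNP_IVM versus IVM was -0.54, and it was 0.18 without IVM replicate 8, so no direction is given.

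TUBG1, the gamma-tubulin of dividing cells and the neighbour of TUBG2, did not follow the other genes. CNP_IVM oocytes had 48.4, 81.2 and 150 CPM (lowest, median and highest). IVM oocytes had 110, 231 and 321 CPM, and GV oocytes 97.7, 119 and 247 CPM. IVM oocytes had the highest mean and CNP_IVM oocytes the lowest, and neighbouring groups in that order overlapped. The means were 91.5 ± 39.9 CPM in CNP_IVM, 215 ± 78.4 CPM in IVM and 138 ± 51.0 CPM in GV oocytes. Without GV replicate 9, its highest oocyte, the GV mean was 120 ± 18.7 CPM (n = 6). The log2 difference of IVM versus GV was 0.63, or 0.83 without that oocyte, and 3 of 8 IVM oocytes were above every GV oocyte (5 of 8 without GV replicate 9). CNP_IVM versus GV was -0.59, or -0.39 without GV replicate 9 and -0.02 with TMM scaling. CNP_IVM versus IVM was -1.22 (2.33-fold lower in CNP_IVM), with 5 of 7 CNP_IVM oocytes below every IVM oocyte. With TMM scaling that difference was -0.91, under 2-fold.

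Counted together in IVM versus GV, TUBA1B, TUBB and TUBB4B were at least 2-fold lower, TUBA1C and TUBG1 were under 2-fold, and none was at least 2-fold higher. Among all kept genes 33.0% were at least 2-fold lower and 15.9% at least 2-fold higher (31.7% and 16.4% without GV replicate 9, which left the counts of the 5 genes as they were). Every IVM oocyte was below every GV oocyte for 2 of the 5 genes, TUBA1B and TUBB4B, against 19.9% of kept genes, and above for 0 of 5, against 11.5%. These were again 2 and 0 of 5, against 25.6% and 14.0%, without GV replicate 9. In CNP_IVM versus GV, 4 of 5 genes were at least 2-fold lower, against 42.0% of kept genes, and 3 of 5 without GV replicate 9, against 40.5%. None was at least 2-fold higher, against 15.3% (14.9% without that oocyte). Every CNP_IVM oocyte was below every GV oocyte for TUBA1B, TUBB and TUBB4B, against 28.0% of kept genes, and above for none, against 12.9% (36.1% and 15.1% without that oocyte, with the same 3 and 0 of 5). In CNP_IVM versus IVM, TUBA1B, TUBB4B and TUBG1 were at least 2-fold lower, against 14.8% of kept genes, and none was at least 2-fold higher, against 1.86%. TUBA1B was lower in every CNP_IVM oocyte than in every IVM oocyte, against 2.60% of kept genes, and for none of the 5 was every CNP_IVM oocyte above, against 1.38%. Under TMM scaling TUBG1 in CNP_IVM versus IVM (-0.91) and TUBA1C in CNP_IVM versus GV (-0.64) were under 2-fold. Fewer kept genes were then at least 2-fold lower in CNP_IVM versus IVM. The comparisons with GV share the GV oocytes, and each comparison shares 1 group with each other comparison.

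These counts are read against a shift of all genes that depends on scaling. The median log2 difference of all kept genes was -0.28 for IVM versus GV, -0.61 for CNP_IVM versus GV and -0.28 for CNP_IVM versus IVM (-0.21 and -0.53 for the first and second without GV replicate 9). TMM scaling moved these medians to -0.07, -0.17 and -0.05, and quantile scaling to 0.15, 0.15 and 0.02. Of the genes at least 2-fold apart, those higher made up 32.4% in IVM versus GV (42.7% with TMM, 52.4% with quantile scaling). The share was 26.8% in CNP_IVM versus GV (42.7% and 53.0%) and 11.1% in CNP_IVM versus IVM (32.2% and 41.1%). Relative to the median of all genes, TUBA1B stood at -3.13 in IVM and -4.32 in CNP_IVM versus GV. TUBB4B stood at -4.06 and -5.38 on that footing, and TUBG1 at 0.91 in IVM and 0.02 in CNP_IVM versus GV. Without GV replicate 9 these were -3.28 and -4.47 for TUBA1B, -3.91 and -5.23 for TUBB4B, and 1.04 and 0.14 for TUBG1. Relative differences of CNP_IVM versus IVM were -1.36 for TUBB4B, -1.23 for TUBA1B, -0.94 for TUBG1, -0.50 for TUBA1C and -0.26 for TUBB.

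**Figure D2:**
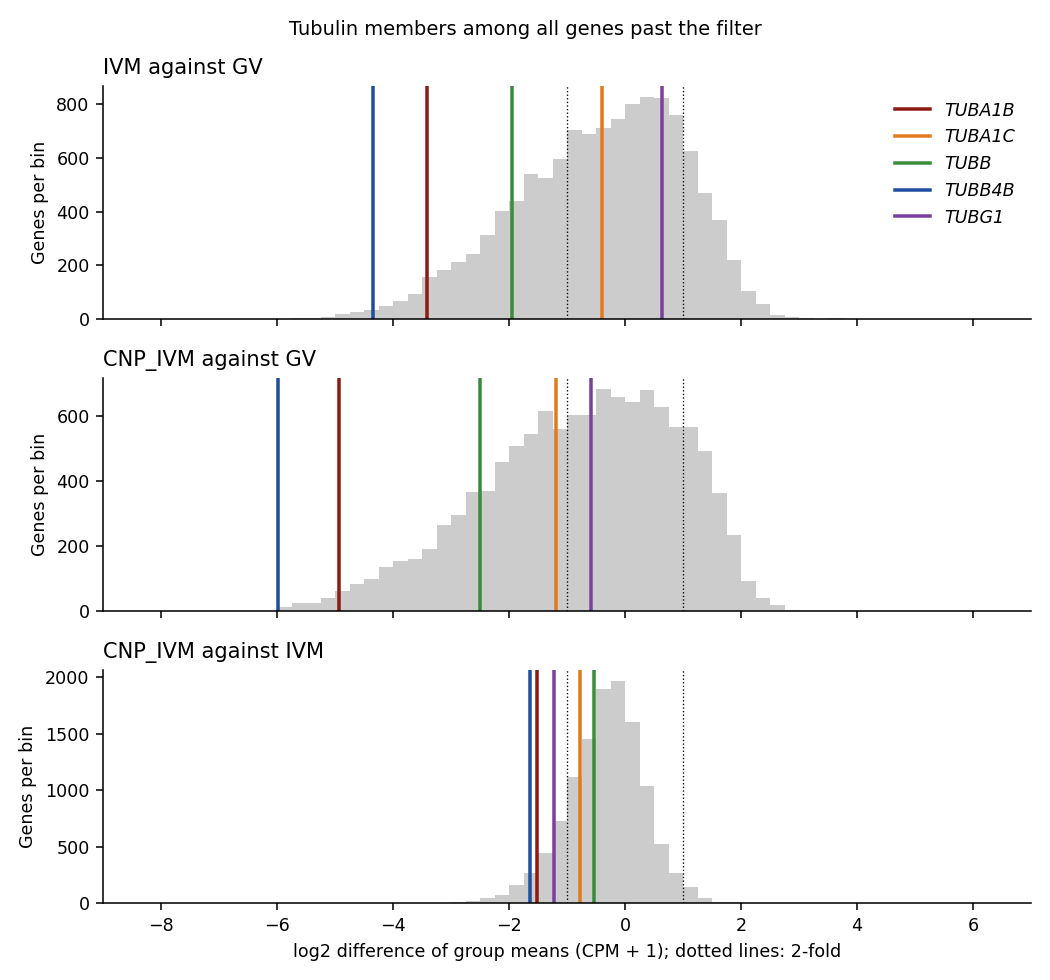
Histograms of the log2 difference of group means for the 11852 kept genes in 3 comparisons (x axis, log2 units of CPM + 1; y axis, genes per bin), with a coloured line for each tubulin gene and dotted lines at 2-fold. TUBB4B and TUBA1B lie in the lower tail of both comparisons with GV (-4.34 and -3.42 for IVM, -5.99 and -4.93 for CNP_IVM), while TUBG1 lies at 0.63 and -0.59.

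The makeup of the tubulin reads differed between stages. Alpha- and beta-tubulin reads are here those of the 5 and 7 genes of these classes with a row. TUBA1B took 10.7% of alpha-tubulin reads in the median CNP_IVM oocyte, 18.98% in the median IVM oocyte and 64.8% in the median GV oocyte. TUBA1C took 84.3%, 74.7% and 32.8% in the same order, and for both genes the shares in matured oocytes did not overlap those in GV oocytes. TUBB4B took 3.68% of beta-tubulin reads in CNP_IVM, 5.25% in IVM and 49.2% in GV oocytes, again without overlap between matured and GV oocytes. TUBB3, a beta-tubulin best known from neurons, took 83.6%, 80.9% and 17.7%. Leaving out GV replicate 9 put the GV medians at 67.3% for TUBA1B, 30.3% for TUBA1C, 50.5% for TUBB4B and 18.3% for TUBB3. These shares use read numbers that are not divided by gene length, so only their difference between groups is informative, and the library total cancels out of them. TUBG1 took 15.96%, 15.90% and 15.91% of the reads of TUBG1 and TUBG2 in the median oocyte of CNP_IVM, IVM and GV (16.99% in GV without replicate 9). Its share ranged from 8.85 to 28.1% in CNP_IVM, 12.95 to 21.1% in IVM and 12.7 to 20.7% in GV oocytes.

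**Figure D3:**
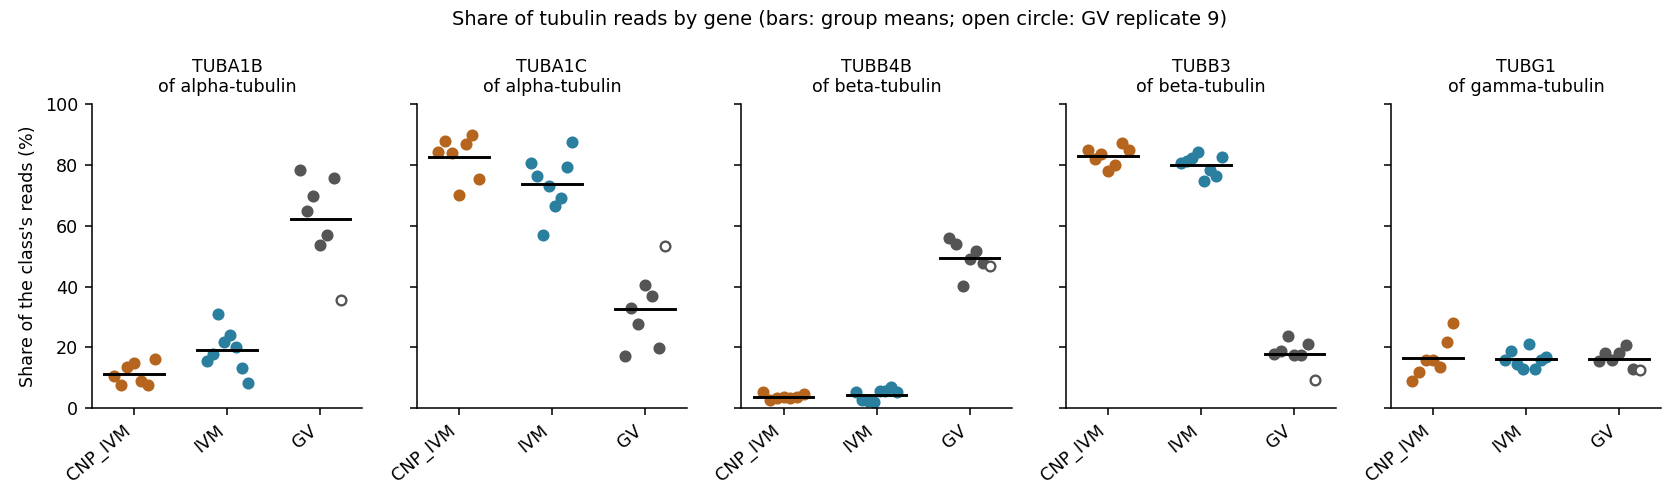
Share of the reads of each tubulin class (percent, y axis) taken by TUBA1B, TUBA1C, TUBB4B, TUBB3 and TUBG1 in every oocyte, with CNP_IVM, IVM and GV from left to right; bars are group means and the open circle is GV replicate 9. TUBA1B has a median share of 18.98% in IVM and 64.8% in GV oocytes, TUBB4B of 5.25% in IVM and 49.2% in GV oocytes, and TUBG1 of 15.90% in IVM and 15.91% in GV oocytes.

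Read numbers of paralogs were also compared within each oocyte. The ratio of TUBA1B to TUBA1C reads had a median of 0.127 in CNP_IVM, 0.263 in IVM and 1.97 in GV oocytes. The ratio of TUBB4B to TUBB2A reads was 0.505, 0.427 and 2.13. Leaving out GV replicate 9 put the GV medians at 2.24 and 2.198. For both ratios every matured oocyte was below every GV oocyte. How reads that match several tubulin genes were counted is not given in the sources used here, so a part of each gene's reads may belong to a close paralog. Summed over a class, reads counted for one of its listed genes in place of another stay within it. Reads left out of the count, or counted for a tubulin gene with no row, would not. Summed alpha-tubulin averaged 372 CPM in CNP_IVM, 700 CPM in IVM and 2097 CPM in GV oocytes (2026 CPM without GV replicate 9), and every matured oocyte was below every GV oocyte. Summed beta-tubulin averaged 130 CPM in CNP_IVM, 360 CPM in IVM and 770 CPM in GV oocytes, and the CNP_IVM oocytes did not overlap the GV oocytes. The log2 difference of this sum in IVM versus GV was -1.09, but -0.85 with TMM scaling and -0.84 without GV replicate 9 (GV mean 647 CPM), both under 2-fold. Summed gamma-tubulin averaged 551, 1362 and 901 CPM in that order of groups (726 CPM in GV without replicate 9), with overlap between all 3 groups.

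Of the 18 other tubulin genes on the family list, 11 had a row and 10 passed the filter. For IVM versus GV, 2 of the 10 were higher by 2-fold or more and 5 lower (4 without GV replicate 9), with a median log2 difference of -0.92 (-0.70 without it). Among all kept genes 15.9% were higher and 33.0% lower, with a median of -0.28 (16.4%, 31.7% and -0.21 without it). For CNP_IVM versus GV, 1 was higher and 7 were lower, with a median of -2.35 (-2.02 without GV replicate 9). The shares of kept genes there were 15.3% and 42.0%, with a median of -0.61 (14.9%, 40.5% and -0.53 without that oocyte). In CNP_IVM versus IVM none was at least 2-fold higher and 6 were lower, with a median of -1.16. The shares of kept genes were 1.86% and 14.8%, with a median of -0.28. Among alpha-tubulins, TUBA1A averaged 18.5 CPM in CNP_IVM, 36.5 CPM in IVM and 76.2 CPM in GV oocytes, with overlapping ranges. Without GV replicate 9 its GV mean was 50.5 CPM and its log2 difference of IVM versus GV went to -0.46 in place of -1.04, under 2-fold. TUBA3E averaged 1.195, 7.94 and 22.6 CPM, and TUBA4A 0.793, 1.56 and 16.6 CPM. The TUBA4A reads were listed at 0 in 2 CNP_IVM, 4 IVM and 1 GV oocyte.

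Among beta-tubulins, TUBB2A had the same order of groups as TUBB4B, with 11.2 ± 3.32 CPM in CNP_IVM, 40.2 ± 15.9 CPM in IVM and 200 ± 137 CPM in GV oocytes (151 ± 48.7 CPM without GV replicate 9) and no overlap between the groups. TUBB2B, its neighbour in the gene order, averaged 0.661, 5.27 and 9.91 CPM. TUBB6 averaged 0.136 CPM in CNP_IVM, 1.27 CPM in IVM and 24.7 CPM in GV oocytes, and both matured groups were wholly below GV. TUBB3 went against them in IVM versus GV only, with 109 ± 24.5 CPM in CNP_IVM, 288 ± 131 CPM in IVM and 129 ± 34.9 CPM in GV oocytes. Its log2 difference of IVM versus GV was 1.16, and 6 of 8 IVM oocytes were above every GV oocyte. CNP_IVM versus GV was -0.24 and CNP_IVM versus IVM was -1.40 for TUBB3, both negative as for the others. TUBB1, the beta-tubulin of platelets, averaged at most 0.104 CPM in any group and did not pass the filter.

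The remaining tubulins belong to gamma-tubulin and to centriole classes. TUBG2 had the same order of groups as TUBG1, with 459 ± 89.0 CPM in CNP_IVM, 1147 ± 423 CPM in IVM and 763 ± 436 CPM in GV oocytes, the last being 606 ± 143 CPM without GV replicate 9. TUBE1, an epsilon-tubulin needed for centriole structure, averaged 306 ± 126 CPM in CNP_IVM, 373 ± 50.6 CPM in IVM and 126 ± 25.96 CPM in GV oocytes. Every IVM oocyte was above every GV oocyte for TUBE1. TUBD1, a delta-tubulin of the same organelle, averaged 39.5 ± 11.6, 65.8 ± 12.1 and 107 ± 5.87 CPM in the same order of groups.

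**Figure D4:**
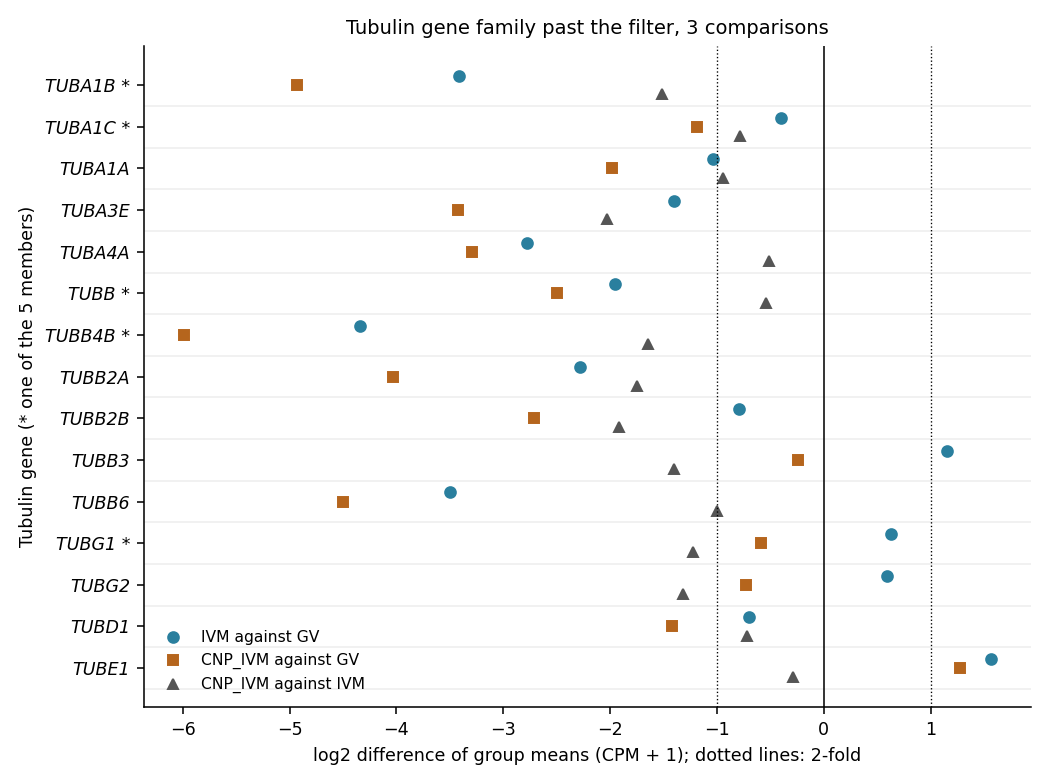
Log2 difference of group means (x axis, CPM + 1) for the 15 tubulin genes past the filter, with circles for IVM versus GV, squares for CNP_IVM versus GV and triangles for CNP_IVM versus IVM; asterisks mark the 5 genes of the report and dotted lines 2-fold. TUBB4B, TUBA1B and TUBB6 lie farthest to the left, TUBE1 lies to the right in both comparisons with GV (1.56 and 1.27), and all triangles lie below 0.

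The 5 genes also differed in how much single oocytes of a group varied. TUBA1B had a coefficient of variation of 22.7% in CNP_IVM, 14.8% in IVM and 15.1% in GV oocytes. The median gene with a mean of at least 10 CPM had 25.6%, 31.9% and 32.03%. In GV oocytes without replicate 9 the values were 8.26% for TUBA1B and 19.2% for the median gene. TUBA1C was more variable than the upper quartile of such genes in IVM (48.7% against 45.2%) and in GV (49.8% against 46.6%, or 39.3% against 27.3% without GV replicate 9). TUBB4B varied by 23.3% in CNP_IVM and by 72.0% in IVM oocytes. Within IVM, the 3 oocytes with the fewest genes at 1 CPM or more (replicates 5, 6 and 7, with 9431 to 9817 genes) had the lowest TUBB4B, TUBG1, TUBA1C and TUBB. They had 4.70 to 6.89 CPM of TUBB4B, against 9.11 to 35.5 CPM in the other IVM oocytes (10400 to 10783 genes). For TUBG1 they had 110 to 141 CPM, against 215 to 321 CPM. They had 197 to 386 CPM of TUBA1C, against 414 to 974 CPM, and 0.446 to 3.81 CPM of TUBB, against 4.15 to 30.7 CPM. Their TUBA1B was not set apart, at 108 to 131 CPM within the group's 93.9 to 151 CPM. All CNP_IVM oocytes had gene numbers close to those of these 3 IVM oocytes, 9429 to 9834 at 1 CPM or more. Their ranges were 3.65 to 6.30 CPM for TUBB4B and 48.4 to 150 CPM for TUBG1. For TUBA1C and TUBB they were 181 to 444 CPM and 1.02 to 10.4 CPM, and for TUBA1B 30.2 to 55.8 CPM. The part of library complexity in these values and in CNP_IVM versus IVM was not tested.

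Genes that act on tubulin were described from lists by role. Their medians stand beside those of all kept genes, -0.28 in IVM versus GV, -0.61 in CNP_IVM versus GV and -0.28 between CNP_IVM and IVM, and their counts beside the shares of kept genes given above. Those shares are without TMM scaling, which changes them as well. List counts with TMM scaling are therefore not to be set against them. Without GV replicate 9 the list medians in IVM versus GV were 0.29 for the ring complex and augmin, -0.75 for folding, 0.92 for autoregulation, -0.73 for modification and 0.77 for growth, bundling and severing. In CNP_IVM versus GV they were -0.13, -1.27, 0.24, -0.94 and 0.63 in that order. Members of the gamma-tubulin ring complex and of augmin, which recruits it to existing microtubules, were split. In IVM versus GV, 3 of the 16 measured were higher by 2-fold or more (5 with TMM scaling), 3 lower and 10 in between, with a median of 0.32. In CNP_IVM versus GV 3 were higher and 5 lower (2 lower with TMM scaling), with a median of -0.10. Comparing CNP_IVM with IVM, 1 was higher and 3 lower (0 lower with TMM scaling), with a median of -0.51. NEDD1, which targets the ring complex to the spindle, averaged 505 CPM in CNP_IVM, 632 CPM in IVM and 183 CPM in GV oocytes, with no overlap between matured and GV oocytes. MZT2B, a small ring complex subunit, averaged 0.267, 1.05 and 28.5 CPM in that order, again with no overlap. MZT1, another small subunit, averaged 33.0 CPM in CNP_IVM, 14.4 CPM in IVM and 7.33 CPM in GV oocytes, and its log2 difference of IVM versus GV was 0.89, or 1.15 without GV replicate 9. TUBGCP2, a ring complex core protein, averaged 3.28, 6.98 and 27.1 CPM.

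Tubulin folding genes, which cover prefoldin, the CCT chaperonin and the tubulin cofactors, had negative medians in all 3 comparisons. In IVM versus GV 12 of 23 were at least 2-fold lower and none was at least 2-fold higher, with a median of -1.06. With TMM scaling 8 were lower, against 29.0% of kept genes under that scaling, and 1 was higher. For CNP_IVM versus GV, 13 were lower and 3 higher (1 higher without GV replicate 9), with a median of -1.54. In CNP_IVM versus IVM 3 were lower (0 with TMM scaling, which put 1 higher), with a median of -0.44. CCT3, a chaperonin subunit, averaged 68.2 CPM in CNP_IVM, 107 CPM in IVM and 582 CPM in GV oocytes. ARL2, a small GTPase that works with the cofactors, averaged 1.89, 4.96 and 39.5 CPM, and neither gene overlapped between matured and GV oocytes. PFDN5, a prefoldin subunit, averaged 36.6 CPM in IVM and 288 CPM in GV oocytes. TXNDC9, a regulator of the chaperonin, went the other way, with 1007 CPM in CNP_IVM and 344 CPM in GV oocytes.

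Tubulin autoregulation is the decay of tubulin messenger RNA during its translation when free tubulin is abundant. TTC5 recognises the nascent tubulin chain and, through SCAPER, brings in the CCR4-NOT deadenylase. In IVM versus GV, 6 of the 12 measured genes of this list were higher by 2-fold or more and 1 lower, with a median of 0.92. In CNP_IVM versus GV 3 were higher and 2 lower (1 lower with TMM scaling), with a median of 0.21, and in CNP_IVM versus IVM none was higher (1 with TMM scaling) and 1 lower (0 with TMM scaling). TTC5 averaged 260 CPM in CNP_IVM, 440 CPM in IVM and 217 CPM in GV oocytes. CNOT6L, a catalytic deadenylase subunit, averaged 262 CPM in CNP_IVM, 139 CPM in IVM and 40.01 CPM in GV oocytes. CNOT7, another catalytic subunit, averaged 426, 360 and 114 CPM. For both subunits every matured oocyte was above every GV oocyte. Apart from TTC5 and TNKS1BP1, the measured genes of this list were CNOT genes, and SCAPER was not among them. These deadenylase genes act on many messenger RNAs besides tubulin.

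Enzymes that modify tubulin were mixed. In IVM versus GV 7 of 19 were at least 2-fold lower and 2 higher (4 higher with TMM scaling), with a median of -0.60. For CNP_IVM versus GV, 10 were lower and 2 higher, with a median of -1.07. Comparing CNP_IVM with IVM, 4 were lower and none higher (1 higher with TMM scaling), with a median of -0.29. TPGS1, a subunit of a polyglutamylase, averaged 0.0571 CPM in CNP_IVM, 1.22 CPM in IVM and 12.6 CPM in GV oocytes. AGBL2, a carboxypeptidase that removes terminal residues from tubulin, averaged 83.7 CPM in CNP_IVM, 82.2 CPM in IVM and 33.2 CPM in GV oocytes. Matured and GV oocytes did not overlap for either gene.

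Genes for microtubule growth, bundling and severing leaned the other way from TUBA1B and TUBB4B in the comparisons with GV. In IVM versus GV 15 of 34 were at least 2-fold higher and 1 lower (2 lower without GV replicate 9), with a median of 0.79. In CNP_IVM versus GV 10 were higher (17 with TMM scaling) and 5 lower (2 with TMM scaling, 3 without GV replicate 9), with a median of 0.72. In CNP_IVM versus IVM 2 were higher and 3 lower, with a median of -0.10. PRC1, which bundles the microtubules of the spindle midzone, averaged 3858 CPM in IVM and 967 CPM in GV oocytes. CKAP5, a microtubule polymerase, averaged 1197 CPM in CNP_IVM and 281 CPM in GV oocytes. MAPRE1, which tracks growing microtubule ends, averaged 757 CPM in CNP_IVM, 376 CPM in IVM and 210 CPM in GV oocytes. For PRC1 and CKAP5 the groups named did not overlap, and for MAPRE1 the CNP_IVM oocytes were above every oocyte of both other groups.

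**Figure D5:**
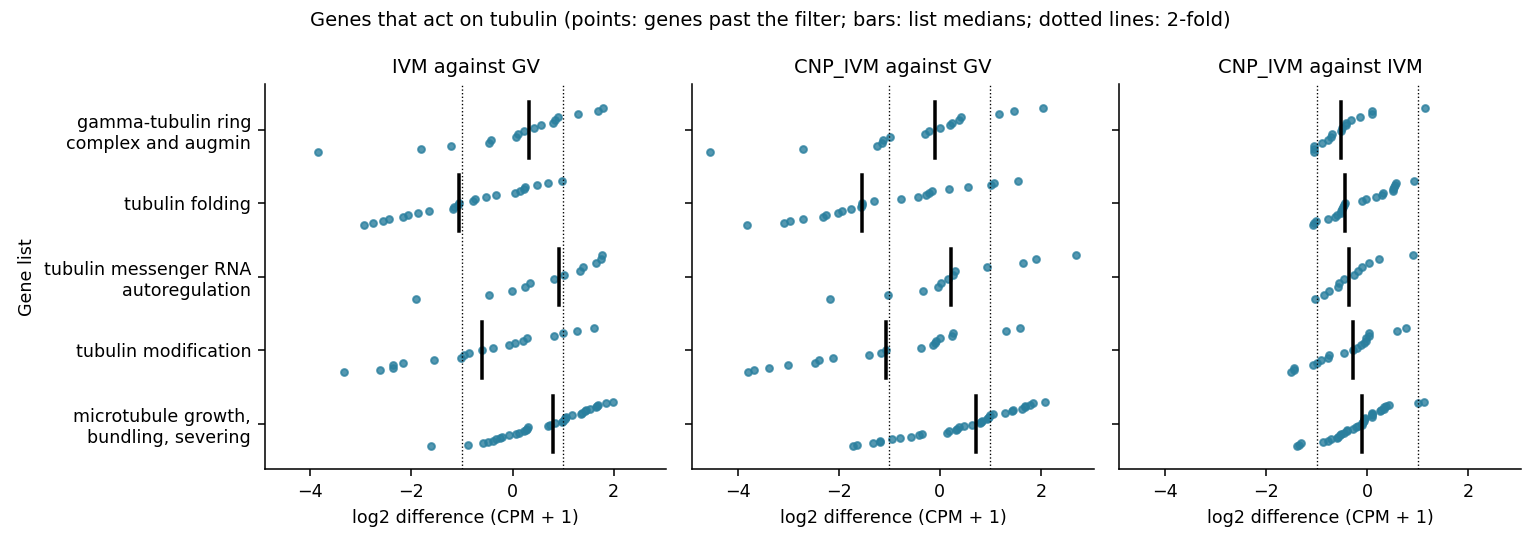
Log2 difference of group means (x axis, CPM + 1) of each gene past the filter in 5 lists of genes that act on tubulin, 1 panel per comparison; points are genes, bars are list medians and dotted lines mark 2-fold. Against GV, folding genes have medians of -1.06 and -1.54, and growth, bundling and severing genes medians of 0.79 and 0.72, while in CNP_IVM versus IVM list medians lie between -0.51 and -0.10.

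The genes whose levels ran most alike were ranked by Pearson correlation of log2(CPM + 1) over all 22 oocytes, among 6988 genes with a mean of at least 10 CPM. These oocytes form 3 groups, so a value over all 22 mixes differences between groups with likeness within them. CHMP2A was most like TUBA1B (r = 0.99), with means of 40.7 CPM in CNP_IVM, 99.5 CPM in IVM and 1225 CPM in GV oocytes. Within CNP_IVM, IVM and GV its correlation with TUBA1B was 0.46, 0.49 and 0.55. DPCD and ADSL came next, both at 0.98 or more, and DPCD had 0.27, 0.12 and 0.83 within the groups. KLC3, ARL6IP4 and SMARCB1 were most like TUBB4B (all 0.99), and SMARCB1 averaged 4.32, 11.8 and 142 CPM in the same order. Within the groups SMARCB1 had 0.094, 0.97 and 0.85. SH3BP5 (0.92), ANKRD39 (0.90) and ATG13 (0.88) were most like TUBB, and ATG13 had 0.022, 0.96 and 0.81 within the groups. B3GALNT2 (0.92) and CSTF2 (0.91) were among the genes most like TUBG1, and within the groups their correlations with it were 0.70, 0.98 and 0.92 for B3GALNT2 and 0.72, 0.95 and 0.83 for CSTF2. TUBA1C had the weakest match of the 5, with BAG3 (0.85), CDC123 (0.83) and RSPO4 (0.81), and that with CDC123 was 0.72, 0.76 and 0.75 within the groups.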

How the data were processed

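Single cattle oocytes were sequenced from SMART-Seq v4 and Nextera XT libraries on a HiSeq X, per the labels' protocols. The kit primes on poly(A), so transcript amount, tail length and the rest of the library cannot be told apart. Tools listed without roles in the submitters' processing notes are featureCounts 2.0.1, edgeR, Trim Galore 0.6.7, HISAT2 2.2.1 and FastQC, beside the mouse build GRCm39, although 13356 of 13502 names are current cattle symbols in RefSeq (ARS-UCD2.0). Coordinates are therefore not given, and whether reads were counted by strand is not given in the sources used here.

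The deposited values are CPM: within each library they are whole multiples of 1 step, the same for every gene. With a tolerance of 0.01 read, 100% of values gave whole reads, and 97.1 to 97.6% of each library lay in listed genes. Columns were matched to samples by the descriptions and groups taken from the titles. Of 29 labelled samples 22 had a column. No library was a copy of another in its group: chi-square over degrees of freedom was at least 37.96 for each pair (genes of 20 or more reads).

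Differences are log2 ratios of group mean CPM plus a pseudocount of 1 CPM, which understates low genes. Count tests on the recovered reads, such as edgeR's, were not run because no oocyte has a named donor. Intervals are exact Poisson intervals of summed reads. A count of 0 allows a level of up to 3 reads, 0.0763 to 0.149 CPM by library. Like-pattern genes and, from each list, up to 4 genes per comparison at least 2-fold apart averaging 10 CPM or more in either group were named by rule; TTC5 and the marker genes were named after their values were seen, and not every gene the rule took is reported here. The 5 genes and all lists were chosen with earlier results of these data known. Alternatives were a pseudocount of 0.1 CPM, no filter, TMM (edgeR 4.0.16) and quantile scaling, totals without the mitochondrial genome, group medians, summed reads and leaving out each oocyte. Steps were tested on simulated data. Python 3.11.15, pandas 2.3.3, NumPy 2.4.6, SciPy 1.17.1, matplotlib 3.10.9 and R 4.3.3 were used.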

Additional observations from a re-analysis of the deposited data

Results flagged for a closer look

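Of 57 sets of values (a gene or a class sum in 1 group), 14 had 1 oocyte far from the others, its gap to the nearest value being above the 95% limit of Dixon's test. Chance flags about 1 in 20 sets of normal values. The sets share oocytes, and class sums hold genes that are also counted singly, so no excess over chance is read from the 14. GV replicate 9, whose title and treatment label disagree, was the highest GV oocyte in 10 of the 14. It had 109.6 CPM of TUBB, against 15.3 to 22.3 CPM in the other GV oocytes. For TUBB4B it had 707 CPM, against 237 to 409 CPM, and for TUBG1 247 CPM, against 97.7 to 152 CPM. It also stood apart for TUBA1A (230 CPM), TUBA3E (50.1 CPM), TUBB2A (494 CPM) and TUBG2 (1705 CPM). The same oocyte held the highest summed beta-tubulin (1514 CPM), gamma-tubulin (1952 CPM) and total tubulin (6212 CPM). IVM replicate 8 had 30.7 CPM of TUBB, against 0.446 to 7.05 CPM in the other IVM oocytes, and 17.2 CPM of TUBA3E, against 3.87 to 9.87 CPM. CNP_IVM replicate 4 had 2.70 CPM of TUBA4A, against 0 to 1.15 CPM. CNP_IVM replicate 1 had 0.872 CPM of TUBB6, against 0 to 0.0770 CPM. The causes were not tested.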

How the results depend on the processing

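No paired analysis was possible because the results come from no test and replicate numbers only name oocytes. Of 310 alternative values for the 5 genes, 304 moved by less than 1 SD between oocytes. The 6 that moved more came from scaling. With TMM factors TUBA1B was at -3.17 in IVM versus GV, -4.40 in CNP_IVM versus GV and -1.23 in CNP_IVM versus IVM, TUBG1 at -0.018 and TUBB4B at -5.45 in CNP_IVM versus GV, and quantile scaling put TUBB4B at -5.54 there. TMM moved class sums in CNP_IVM versus GV to -1.96 (alpha), -1.97 (beta), -0.12 (gamma) and -0.95 (all). Leaving out each oocyte in turn gave, for IVM versus GV, -3.49 to -3.38 (TUBA1B), -0.58 to -0.17 (TUBA1C), -2.68 to -1.23 (TUBB), -4.56 to -4.11 (TUBB4B) and 0.53 to 0.83 (TUBG1). For CNP_IVM versus GV the ranges were -5.02 to -4.87, -1.31 to -0.96, -2.75 to -1.77, -6.07 to -5.76 and -0.75 to -0.39 in that order of genes. For CNP_IVM versus IVM they were -1.60 to -1.45, -0.91 to -0.60, -0.79 to 0.18, -1.78 to -1.43 and -1.38 to -1.11. Genes at least 2-fold higher numbered 1880 in IVM versus GV (3141 with quantile scaling) and 1818 in CNP_IVM versus GV (2979 with TMM, 3552 with quantile scaling), where 4977 were lower (3146 with quantile scaling). In CNP_IVM versus IVM 220 were higher (395 with a pseudocount of 0.1 CPM, 466 with TMM, 483 with quantile scaling) and 1754 lower (2793, 980 and 692). List counts that moved under TMM in IVM versus GV were 5 higher in the ring complex and augmin list, 1 higher in folding and 4 higher in modification; without GV replicate 9, growth had 2 lower. In CNP_IVM versus GV, TMM gave 2 lower in ring complex and augmin, 1 lower in autoregulation and 17 higher and 2 lower in growth, and leaving out GV replicate 9 gave 1 higher in folding and 3 lower in growth. In CNP_IVM versus IVM, TMM gave 0 lower in ring complex and augmin, 1 higher and 0 lower in folding, 1 higher and 0 lower in autoregulation and 1 higher in modification. Beyond the scaling itself and the oocyte left out, the cause was not tested. Depth bears most on TUBB, which rested on 1266 summed reads in CNP_IVM, 2184 in IVM and 7504 in GV oocytes.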
